A study of Danio rerio with 17 samples.

Results

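Onecut neurons of the larval zebrafish optic tectum (OT) were followed here as the neurons in which transcripts of the cut-homeodomain genes *onecut1* (ENSDARG00000007982) and *onecut3b* (ENSDARG00000091059) were read repeatedly. They were selected on these readouts in transcriptomes of single cells captured in droplets from dissected OT with the torus longitudinalis, in which every captured transcript carries a unique molecular identifier (UMI) and every droplet a cell barcode. A barcode counted as an onecut neuron when it held 600 to 4000 genes, at most 7500 UMIs, at most 10% mitochondrial UMIs, at least 1 UMI of the pan-neuronal gene *elavl3*, and at least 2 UMIs of *onecut1* and *onecut3b* in total. This rule was met by 953 barcodes, of 42338 *elavl3* barcodes, 53173 barcodes past the same filters and 87881 barcodes in all. The 41385 *elavl3* barcodes with 0 or 1 UMI of both genes are called other neurons.

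The larvae were wild type and untreated, and differed only in age. There were 7 batches from larvae at 7 days post fertilization (dpf), numbered 1, 2, 3, 4, 8, 11 and 12. The 4 batches numbered 5, 6, 7 and 10 came from larvae at 6 dpf. A batch was 1 dissection in which tecta of many larvae were pooled, so that batches and not animals are the replicates. P-values that compare batches of different age measure the spread between dissections. Those that compare groups within a batch measure how far the group difference varied between dissections. For batch 8, 1 label line gives 6 dpf while the age entry and the remaining lines give 7 dpf, and the age entry was followed. Batches held between 5073733 and 51995462 UMIs at 7 dpf and between 5551298 and 88294858 UMIs at 6 dpf. At most 1.16% of the barcodes of a lane recurred in another of the 12 lanes, and 0 onecut barcodes were found in a second lane.

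Onecut proteins are transcription factors with a cut domain and a homeodomain. In vertebrate embryos they are expressed in subsets of early differentiating neurons, among them retinal, spinal and midbrain neurons, and in liver and pancreas. The OT is the main visual centre of the zebrafish brain, in which excitatory neurons are recognised by the vesicular glutamate transporters *slc17a6a* and *slc17a6b* and inhibitory neurons by the GABA-synthesising enzymes *gad1b* and *gad2*.

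Onecut neurons carried few UMIs of the genes that define them. Among *elavl3* barcodes, 39791 had 0 UMIs of *onecut1* and *onecut3b*, 1594 had 1, 466 had 2, 208 had 3 and 279 had 4 or more, up to 16. The barcodes on both sides of the limit were graded and not separate. *onecutl* (ENSDARG00000040253), a further onecut family member that the rule did not use, had a UMI in 25.8% of the barcodes just inside the limit (2 UMIs), against 10.2% of those just outside it (1 UMI) and 1.06% of those with 0. *bnc2*, a zinc finger transcription factor gene, had a UMI in 54.3% of the barcodes with 2 onecut UMIs, against 36.1% of those with 1 and 17.7% of those with 0. Median depth moved with this count, at 3250 UMIs for 2, 2939 for 1 and 2295 for 0. Members at 4 or more UMIs had *onecutl* in 49.5% and *bnc2* in 80.3% of barcodes.

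Free RNA in droplets was read from 46 barcodes with at least 3 UMIs of the microglial genes *c1qa*, *c1qb*, *c1qc* and *mpeg1.1*. They were deeper than neurons, with a median of 4956.5 UMIs, and 19 of them carried an *elavl3* UMI, but 1 had a UMI of *onecut1* or *onecut3b* and 0 had 2, which allows a share of up to 6.52% at this number of barcodes. Among 10835 barcodes without *elavl3*, which had a median depth of 1546 UMIs, 58 (0.535%) held 2 or more onecut UMIs.

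The defining genes split the members. *onecut3b* was the more abundant of the pair, with 2135 UMIs against 990 of *onecut1*. Of the 953 members, 162 (17.0%) carried *onecut1* without *onecut3b*, 462 (48.5%) carried *onecut3b* without *onecut1*, and 329 (34.5%) carried both. Batch 10 held 252 of the 462 *onecut3b*-only members and 31 of the 162 *onecut1*-only members. In batches 4, 5 and 8 the kinds were near equal in number, at 13, 19 and 33 *onecut1*-only members against 16, 18 and 37 *onecut3b*-only members. A member without a UMI of a gene may still express it, since most members held 2 or 3 onecut UMIs in all.

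Onecut neurons made up 2.25% of *elavl3* barcodes over all batches. The share was 0.984% in batch 1, 1.78% in batch 2, 2.23% in batch 3, 2.77% in batch 4, 2.29% in batch 8, 1.84% in batch 11 and 1.59% in batch 12 at 7 dpf. At 6 dpf it was 2.14% in batch 5, 1.57% in batch 6, 2.67% in batch 7 and 2.99% in batch 10. The ages overlapped over most of their range. Batch 2 rested on 8 members of 449 barcodes (95% exact binomial interval 0.772% to 3.48%) and batch 10 on 363 of 12157 (2.69% to 3.30%). Such intervals cover counting error only.

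**Figure D1:**
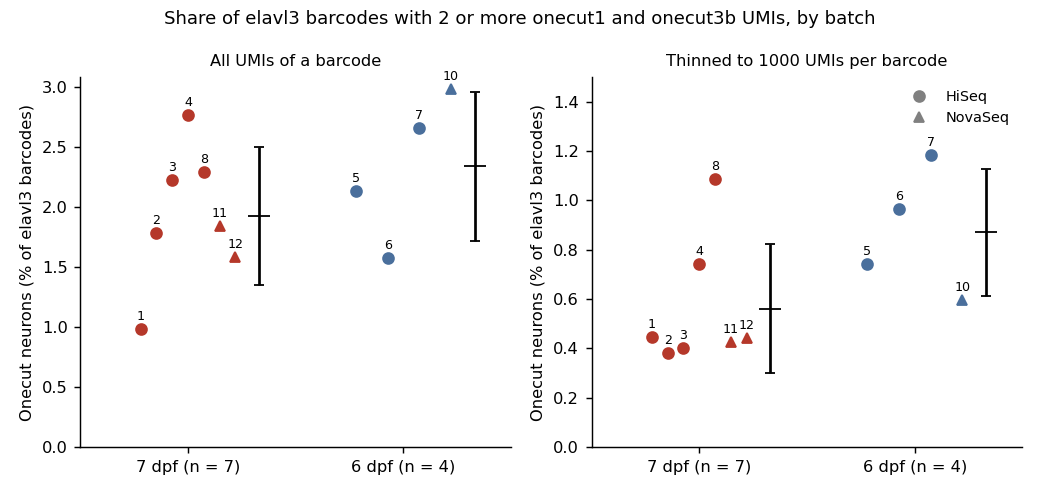
Share of *elavl3* barcodes that met the onecut rule (%, vertical axis) in each batch at 7 dpf (red) and 6 dpf (blue), from all UMIs (left) and after thinning each barcode to 1000 UMIs (right). Numbers name the batch, circles are HiSeq and triangles NovaSeq batches, and bars give mean ± SD. The batches at 7 dpf lie between 0.984% and 2.77% and those at 6 dpf between 1.57% and 2.99% in the left plot, and the ages overlap in both plots.

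The share averaged 1.93% ± 0.573 at 7 dpf (SD, n = 7) and 2.34% ± 0.620 at 6 dpf (SD, n = 4), a difference of -0.41 percentage points that did not pass a two-sided exact permutation test over 330 assignments (p = 0.29; the smallest p possible was 0.0030). Within the 8 HiSeq batches the means were 2.01% ± 0.673 at 7 dpf and 2.13% ± 0.546 at 6 dpf, with an exact permutation p = 0.84. The NovaSeq batches held a single 6 dpf batch and gave no test. Thinning every barcode to 1000 UMIs lowered the shares to 0.561% ± 0.262 at 7 dpf and 0.871% ± 0.257 at 6 dpf, with an exact permutation p = 0.085. Members were deeper than other neurons, at a median of 3580 UMIs against 2318 UMIs, and had the higher median in 10 of 11 batches.

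The neuronal label was checked on genes outside the rule. *elavl4*, a neuronal RNA-binding protein gene, had a UMI in 71.1% of onecut neurons and 61.1% of other neurons, against 17.4% of the microglial barcodes. Thinned to 1000 UMIs, the shares were 38.9% ± 12.3 of onecut neurons and 40.5% ± 6.50 of other neurons (mean ± SD over 10 batches), against 8.70% of the microglial barcodes, so that both groups carried it well above background and at this depth no difference between them was visible. After thinning to 1000 UMIs, *onecutl* was detected in 12.7% ± 8.77 of onecut neurons and 0.686% ± 0.260 of other neurons (mean ± SD over 10 batches), and in 0% of the microglial barcodes (33.9%, 1.41% and 2.17% before thinning). *onecut2*, a further paralogue, was detected in 21.2% ± 9.59 of thinned onecut neurons and 9.19% ± 3.09 of other neurons, and *onecut3a* in 2.17% ± 2.06 of onecut neurons and 0.0751% ± 0.0694 of other neurons. The 3 onecut genes that the rule did not use were thus higher in the members in 9, 9 and 7 of 10 batches.

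Markers of glia, progenitors, microglia and blood were lower in onecut neurons in 8 to 10 of 10 batches, and those of retina, habenula and lens, and cerebellum and hindbrain in 4, 6 and 5. The summed level of 12 radial glia genes ranged between 379.2 and 1867 CPM (a gene's UMIs scaled to the same total of UMIs in every group) in onecut neurons, median 671.1, and between 866.2 and 5138 CPM in other neurons, median 1995, and was lower in onecut neurons in 10 of 10 batches. The 15 cycling progenitor genes summed to a median of 119.9 CPM in onecut neurons (range 31.7 to 239) and 278 CPM in other neurons (68.5 to 1214). Microglial genes were lower in 10 of 10 batches, with *c1qc* at 0 throughout the members, and erythrocyte genes in 8 of 10. For retina the sum had a median of 201 CPM in onecut neurons (31.7 to 323) and 186 CPM in other neurons (84.7 to 226), with *rx1*, *rx2* and *rem1* at 0 in the members. For habenula and lens it was 517 CPM (253 to 635) and 463 CPM (179 to 681), and for cerebellum and hindbrain 121 CPM (70.6 to 202) and 127 CPM (92.5 to 156), with 6 of 19 genes, mostly *hox* genes, at 0 in the members. The habenula and lens list includes *pou4f1*, and the cerebellum and hindbrain list *zic1*. Both are also taken below as genes of tectal neurons, so that these sums do not measure cells of those regions alone. A UMI of the habenula genes *gng8* and *kiss1* or the lens gene *crygm2d13* was found in 3.78% of members and 2.21% of other neurons. The highest doublet scores of a lane (its top 10%) held 8.50% of the members and 10.5% of the other neurons.

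Which genes accompany onecut expression was examined by summing UMIs over the barcodes of each group within a batch and comparing onecut with other neurons across 10 batches with batch as a block (edgeR quasi-likelihood test, Benjamini-Hochberg adjusted p under 0.05). Batch 2 was left out for its 8 members, so that 945 members and 40944 other neurons entered. Positive log2 fold changes mean higher in onecut neurons, and the genes of the rule were not tested. A sum over barcodes does not tell a larger share of cells with a gene from more RNA per cell. Of 10734 genes, 439 (4.09%) were higher and 966 (9.0%) lower in onecut neurons, and the median log2 fold change of all genes was -0.08. At 1500 to 4000 UMIs per barcode, where depth differed less, 304 genes were higher and 481 lower, and 240 and 412 of these were among the first. Without batch 12 the genes higher numbered 281.

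Several transcription factor genes were higher in onecut neurons in every batch. *onecutl* reached between 72.8 and 378 CPM in onecut neurons, median 145, against 2.56 to 15.8 CPM in other neurons, median 6.14. The groups did not overlap, and the fitted log2 fold change was 4.53 ± 0.18 (SE; edgeR adjusted p = 9.36e-142). *bnc2*, the basonuclin gene, reached between 634 and 2680 CPM in onecut neurons, median 980, against 82.4 to 311 CPM in other neurons, median 172. Again no batch of other neurons reached the lowest onecut batch (log2 fold change 2.58 ± 0.16, adjusted p = 2.06e-54), and the related *BNC1* was higher in 10 of 10 batches at 2.33 ± 0.19. *onecut2* had a median of 264 CPM in onecut neurons (31.7 to 347) and 103 CPM in other neurons (27.9 to 143), with a log2 fold change of 1.25 ± 0.14 and 10 of 10 batches higher. *sall1a*, a spalt-type zinc finger gene, the POU factor gene *pou2f2a* (ENSDARG00000036816), the nuclear receptor gene *nr2f2* and the dachshund gene *dachb* had log2 fold changes between 1.43 and 1.84, each higher in 10 of 10 batches. In batch 1, *onecut2*, *sall1a*, *nr2f2* and *dachb* each rested on 1 UMI in the onecut neurons. The same held for *nr2f2* in batch 6 and *BNC1* in batches 3 and 6, so that the direction in these batches is uncertain. *pou2f2a* names more than 1 feature in the counts, and the value is that of the identifier given.

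A further set rose strongly without the same sign in every batch. *erfl1*, an ETS repressor gene, had between 0 and 693 CPM in onecut neurons, median 274, against 10.9 to 86.6 CPM in other neurons, median 48.7, and was higher in 8 of 10 batches (log2 fold change 2.43 ± 0.15, edgeR adjusted p = 5.87e-53). The neurogenic helix-loop-helix gene *nhlh2* (2.38 ± 0.17) and the Iroquois gene *irx6a* (2.13 ± 0.21) were higher in 9 and 8 of 10 batches. Thinned to 1000 UMIs, *erfl1* was detected in 17.3% ± 10.1 of onecut and 3.61% ± 1.22 of other neurons and *bnc2* in 49.95% ± 13.5 of onecut and 11.2% ± 3.39 of other neurons. By the measure of likeness used here, the fold change over 10 batches and not the pattern among them, the 10 genes nearest to the defining pair included *onecutl*, *ctss2.2*, *cart3*, *vim*, *bnc2*, *scube1*, *btbd17a*, *erfl1* and *nhlh2*.

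Not all of these were neuronal regulators. *vim*, which encodes the intermediate filament vimentin, had a median of 305 CPM in onecut neurons (104 to 824) and 51.3 CPM in other neurons (18.2 to 98.9), without overlap (2.66 ± 0.14). *ctss2.2*, a cathepsin S-type protease gene, rose by 3.66 ± 0.21 on the log2 scale and had a UMI in 20.5% of onecut neurons and 1.32% of other neurons. Its share was 84.8% in the microglial barcodes, while the summed microglial markers were lower in onecut than in other neurons in every batch used. A paralogue, *ctss2.1*, is among those markers, and how reads of such close copies were assigned was not tested. *cart3*, a cocaine- and amphetamine-regulated transcript gene, had a log2 fold change of 3.37 ± 0.93 (edgeR adjusted p = 0.044) but was higher in 5 of 10 batches, with 1301 CPM in onecut neurons of batch 7. Without batch 7 it was 2.72 with an adjusted p of 0.077 in edgeR, and leaving out batch 4, 5, 6 or 12 also ended the call, at adjusted p between 0.056 and 0.11. The alternative test DESeq2 did not call it (1.59, adjusted p = 0.33), nor did edgeR with at least 20 barcodes per group (adjusted p = 0.070).

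**Figure D2:**
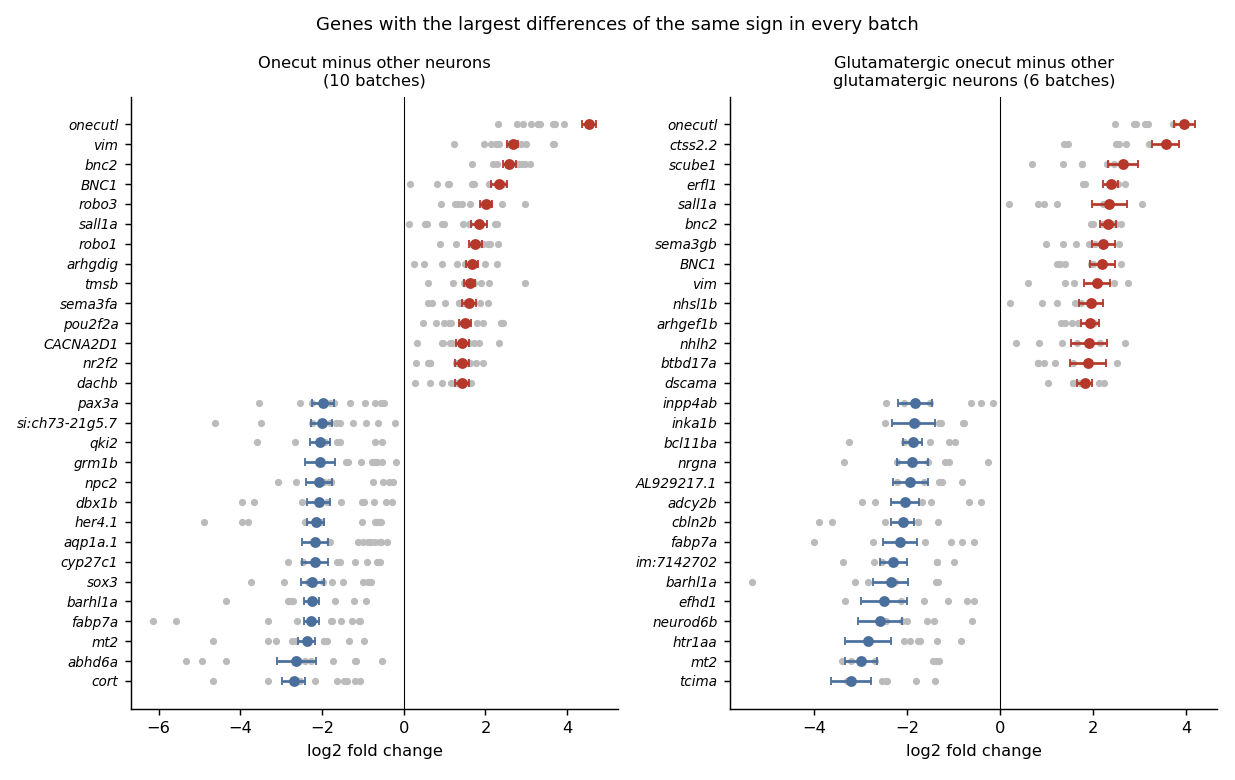
Fitted log2 fold changes (horizontal axis, large points ± SE) of genes that were called with the same sign in every batch, for onecut against other neurons in 10 batches (left) and for glutamatergic onecut against other glutamatergic neurons in 6 batches (right); red is higher and blue lower in onecut neurons. Small grey points are single batches on the log2 (CPM + 10) scale, which draws low genes towards 0. *onecutl*, *vim* and *bnc2* lead the left plot at 4.53, 2.66 and 2.58.

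Genes for axon guidance and adhesion moved in both directions. Of 33 guidance genes of the robo, slit, semaphorin and netrin families that were tested, 10 rose and 5 fell, beside 4.09% and 9.0% of all genes, with a median log2 fold change of 0.03 against -0.08 over all genes. Among those that rose were the Slit receptor genes: *robo1* had a median of 1680 CPM in onecut neurons (553 to 3639) and 451 CPM in other neurons (232 to 754), higher in 10 of 10 batches (1.75 ± 0.16, edgeR adjusted p = 1.01e-23), and *robo3* rose by 2.00 ± 0.14. The secreted semaphorin genes *sema3fa* (1.59 ± 0.17) and *sema3gb* (2.13 ± 0.17), the plexin gene *plxna2* (0.93 ± 0.15) and the ligand gene *slit2* (0.80 ± 0.21) were higher as well. The neuropilin genes *nrp2b* (-0.84 ± 0.17) and *nrp1b*, *nrp2a*, *sema5a* and *unc5da* fell. Among 23 ephrin and Eph genes, *efnb2a* rose (1.08 ± 0.14, 10 of 10 batches) and *epha3* (-1.18 ± 0.19), *epha6* and *epha7* fell, counts close to the 4.09% and 9.0% of all genes. Of 34 adhesion genes 4 rose, the immunoglobulin-type *mcama*, *bcam*, *l1cama* and *l1camb*, and 7 fell, all of them cadherins, protocadherins or *cntn4*.

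Transmitter genes divided between the classes. *slc17a6b* was between 128 and 258 CPM in onecut neurons, median 162, against 43.5 to 138 CPM in other neurons, median 119. It was higher in 10 of 10 batches although the groups overlapped (0.70 ± 0.15, edgeR adjusted p = 4.72e-05). *slc17a6a* had medians of 78.5 CPM in onecut and 72.6 CPM in other neurons (0.32 ± 0.17, edgeR adjusted p = 0.21), so that a difference was not detectable at this depth. Of 6 genes for GABA and glycine transmission, 5 fell, beside 9.0% of all genes tested. *gad2* had a median of 109 CPM in onecut neurons (0 to 198) and 230 CPM in other neurons (109 to 493), lower in 10 of 10 batches (-1.17 ± 0.16). *gad1b* (-1.29 ± 0.17), the vesicular transporter gene *slc32a1* (-0.98 ± 0.16) and the GABA uptake transporter genes *slc6a1b* (-1.45 ± 0.17) and *slc6a1a* (-1.14 ± 0.16) fell with it. *gad1b* was nearest between the groups in batch 10, with 182 CPM in onecut and 209 CPM in other neurons, apart from batch 6, where it was higher in onecut neurons at 85.0 against 67.1 CPM. In the 12 members of batch 6, 85.0 CPM is 2 UMIs.

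Counted by barcode, 319 members (33.5%) had *slc17a6a* or *slc17a6b* without *gad1b* or *gad2*, 222 (23.3%) the reverse, 178 (18.7%) both and 234 (24.6%) neither. Among other neurons the shares were 19.2%, 35.4%, 10.8% and 34.6% in the same order. These shares rise with depth, in which the groups differed. Thinned to 1000 UMIs, *slc17a6b* was detected in 17.2% ± 4.21 of onecut neurons and 10.9% ± 2.64 of other neurons, and *gad2* in 8.32% ± 6.02 of onecut neurons and 18.2% ± 6.50 of other neurons.

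**Figure D3:**
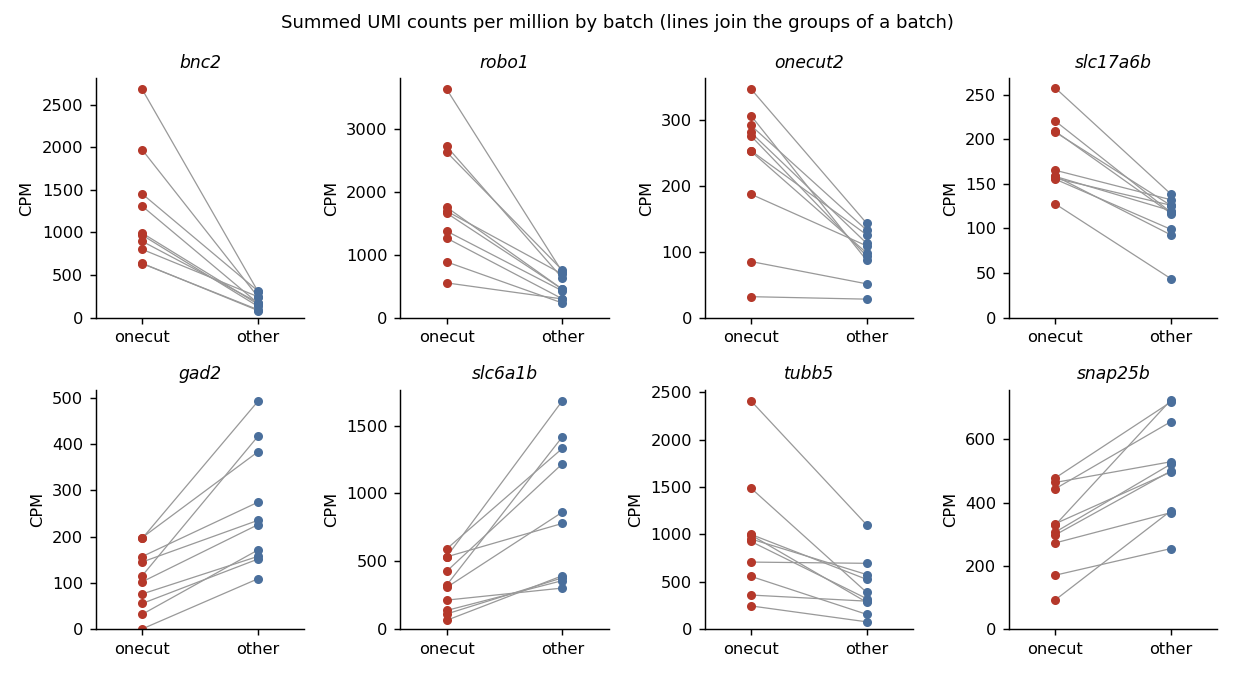
Level of 8 genes (CPM, vertical axis) summed over onecut neurons (red, left) and other neurons (blue, right) of each of 10 batches, with lines joining the groups of a batch. *bnc2*, *robo1*, *onecut2*, *slc17a6b* and *tubb5* are higher and *gad2*, *slc6a1b* and *snap25b* lower in onecut neurons in 10 of 10 batches.

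Of 29 genes of immature neurons, 12 rose and 4 fell (median 0.33), beside the 4.09% and 9.0% of all genes tested. The tubulin gene *tubb5* had a median of 937 CPM in onecut neurons (243 to 2410) and 352 CPM in other neurons (74.7 to 1099), higher in 10 of 10 batches (1.07 ± 0.15). The thymosin gene *tmsb* (1.61 ± 0.14), the growth cone gene *gap43* (0.82 ± 0.14) and the chemokine receptor gene *cxcr4b* (1.94 ± 0.26) rose, the last in 8 of 10 batches. *cxcr4b* had a UMI in 4.93% of onecut neurons and 1.00% of other neurons, but in 39.1% of the microglial barcodes, and the part of such RNA in its rise was not tested. The 4 that fell, *her4.1* (-2.16 ± 0.22), *dla*, *ascl1a* and *hes6*, act in Notch signalling or in progenitors. Of 31 genes of mature neurons and vesicle release, 1 (*sv2bb*) rose and 12 fell (median -0.38). *snap25b*, a component of the vesicle fusion machinery, had a median of 318 CPM in onecut neurons (91.8 to 478) and 511 CPM in other neurons (254 to 725), and *syt1a*, the calcium sensor, 576 CPM in onecut neurons (255 to 1137) and 874 CPM in other neurons (396 to 1602), each lower in 10 of 10 batches (-0.75 ± 0.15 and -0.68 ± 0.16). Of 29 glutamate receptor genes 13 fell, among them *gria2b* (-0.99 ± 0.17), *grin1a* (-0.66 ± 0.15) and *grm1b* (-2.05 ± 0.38), and *grin2da* rose. The value of *grm1b* rested on 14 UMIs in the onecut neurons of all batches together. Of 20 GABA and glycine receptor genes 7 fell, and *glra4a* rose (1.18 ± 0.17, 10 of 10 batches). Of 39 voltage-gated channel genes 3 rose and 3 fell, again close to the shares of all genes, and the calcium channel subunit gene *CACNA2D1* was among those that rose (1.44 ± 0.15).

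Most radial glia and progenitor genes of the lists used here were lower in onecut neurons. All 10 genes of the radial glia list that were tested fell, beside 9.0% of all genes tested. *vim*, given above and not on this list, went the other way (2.66 ± 0.14). *fabp7a*, a fatty acid-binding protein gene of radial glia, had a median of 91.1 CPM in onecut neurons (0 to 425) and 618 CPM in other neurons (36.7 to 1443) (-2.26 ± 0.18). Of 8 cycling genes 5 fell, among them *ccnd1* (-1.51 ± 0.23) and *mki67* (-1.40 ± 0.30). In an alternative chosen after seeing the data, both groups were limited to barcodes without a UMI of either list. In the 5 batches that then entered, 139 genes were higher and 275 lower, and 109 and 220 of these were among the first calls. *slc17a6b* (0.52, edgeR adjusted p = 0.25), *gad2* (-0.71, adjusted p = 0.074) and *syt1a* (-0.65, adjusted p = 0.0865) did not pass in that smaller set, where 140 members remained. Nor did *barhl2*, *zic2a*, *nr2f2*, *cort*, *gria2b*, *mt2* and *neurod6b*, at adjusted p between 0.0546 and 0.41, each with its direction kept. Of 56 further tectal transcription factor genes 6 rose and 23 fell, beside 4.09% and 9.0% of all genes tested. Those that fell were led by the Bar homeobox gene *barhl1a*, with 0 to 73.5 CPM in onecut neurons, median 31.4, against 80.1 to 425 CPM in other neurons, median 213, without overlap (-2.26 ± 0.18). *otx2b*, *dmbx1a*, *gata2a*, *gata3*, *pax7a* and *neurod6b* (-1.58 ± 0.30) fell with it. The 6 that rose were *tfap2d* (1.23 ± 0.15), *zic1*, *barhl2* (0.87 ± 0.14), *zic2a* (0.72 ± 0.18), *en2b* and *lhx9* (0.55 ± 0.15). *zic1* (0.94 ± 0.24, edgeR adjusted p = 0.0024) was higher in 7 of 10 batches. It was 0.41 without batch 11 (adjusted p = 0.32) and did not pass without batch 3 or batch 7 (adjusted p = 0.20 and 0.10). Nor did it pass in DESeq2 (0.69, adjusted p = 0.24) or in edgeR with at least 20 barcodes (adjusted p = 0.29) or with size factors of DESeq2 (adjusted p = 0.19). Of 13 neuropeptide genes 3 rose and 5 fell, beside the same shares of all genes, and *cort* (cortistatin, -2.70 ± 0.27) and *npy* (-2.71 ± 0.25) were among those that fell. *adcyap1b*, the PACAP gene, rose by 1.02 ± 0.14 in 9 of 10 batches. The metallothionein gene *mt2* (-2.38 ± 0.20), *sox3*, *dbx1b*, *pax3a* and *qki2* were also among the 15 genes with the lowest values of the same sign in every batch. Onecut neurons held 23 to 45 UMIs each of *cort*, *npy*, *neurod6b*, *sox3*, *dbx1b*, *pax3a* and *qki2*, with 0 in at least 1 batch.

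To separate what went with the glutamatergic class, both groups were limited to barcodes with a UMI of *slc17a6a* or *slc17a6b* and 0 of *gad1b* and *gad2*. In the 6 batches with enough members, 293 glutamatergic onecut neurons were compared with 7135 other glutamatergic neurons. Of 8429 genes, 247 (2.93%) were higher and 323 (3.83%) lower in the edgeR test. At 1500 to 4000 UMIs these were 106 and 118. Without batch 10 the genes higher numbered 162, and without batch 12 the genes lower numbered 206. With size factors of DESeq2 in edgeR the split was 296 higher and 287 lower, and with DESeq2 itself 189 and 158.

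Within this class, *onecutl* (3.96 ± 0.23), *ctss2.2* (3.55 ± 0.29), *erfl1* (2.37 ± 0.17), *sall1a* (2.34 ± 0.38) and *bnc2* (2.32 ± 0.17) were higher in 6 of 6 batches. *bnc2* had a median of 1707 CPM in glutamatergic onecut neurons (1021 to 3203) and 372 CPM in other glutamatergic neurons (168 to 589), without overlap. *robo1* (1.69 ± 0.18), *sema3gb* (2.22 ± 0.24), the Down syndrome cell adhesion molecule genes *dscama* (1.81 ± 0.16) and *dscamb*, and *onecut2* (1.28 ± 0.18) rose as well. Among genes named above for all neurons, *robo3* (1.88), *gap43* (0.38), *barhl2* (0.35), *syt1a* (-0.47) and *epha3* (-0.75) did not pass here. Their edgeR adjusted p lay between 0.080 and 0.21. Nor did *cxcr4b* (2.19), *her4.1* (-1.14) and *qki2* (-1.27), at edgeR adjusted p between 0.056 and 0.077, or *slc32a1* (0.17, edgeR adjusted p = 0.81). In simulated counts this fit recovered 64.6% of planted changes of 1 on the log2 scale, so that a gene that did not pass may still differ. *tfap2d* passed at 0.62 (edgeR adjusted p = 0.016), higher in 4 of 6 batches, but lost the call in 7 alternative settings. Of 30 guidance genes 8 rose and 3 fell. Of 27 immature neuron genes 7 rose and 0 fell, and of 31 genes of mature neurons and vesicle release 0 rose and 6 fell, beside 2.93% higher and 3.83% lower of all genes. In this comparison 5 of 9 radial glia genes fell too (median -1.17), and their part in these counts was not tested. *snap25b* was lower by 0.65 on the log2 scale (SE 0.17), and passed no longer without batch 12 (-0.54, edgeR adjusted p = 0.076).

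Of the genes that fell in glutamatergic onecut neurons, *barhl1a* had a median of 48.3 CPM in onecut neurons (0 to 94.6) and 298 CPM in other glutamatergic neurons (133 to 529), without overlap (-2.35 ± 0.38). *neurod6b* (-2.58 ± 0.47), a neuronal helix-loop-helix gene, the serotonin receptor gene *htr1aa* (-2.83 ± 0.49), the cerebellin gene *cbln2b* (-2.09 ± 0.25), the neurogranin gene *nrgna* (-1.89 ± 0.33) and the zinc finger gene *bcl11ba* (-1.88 ± 0.20) were lower in 6 of 6 batches. Of these, *neurod6b* and *htr1aa* rested on 8 and 6 UMIs in the onecut neurons. *bcl11ba* was abundant enough for every batch to hold UMIs, at a median of 199 CPM in onecut neurons (82.7 to 270.1) and 601 CPM in other glutamatergic neurons (322 to 1238). *tcima*, with a median of 2.77 CPM in glutamatergic onecut neurons against 49.6 CPM in other glutamatergic neurons, had the largest fall (-3.20 ± 0.43), and rested on 7 UMIs in the onecut neurons. *gria2b* (-1.04 ± 0.21) and the GABA receptor genes *gabra4* and *gabrb2a* were lower in this class too, although *gria2b* did not pass at 1500 to 4000 UMIs (-0.82, edgeR adjusted p = 0.12).

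**Figure D4:**
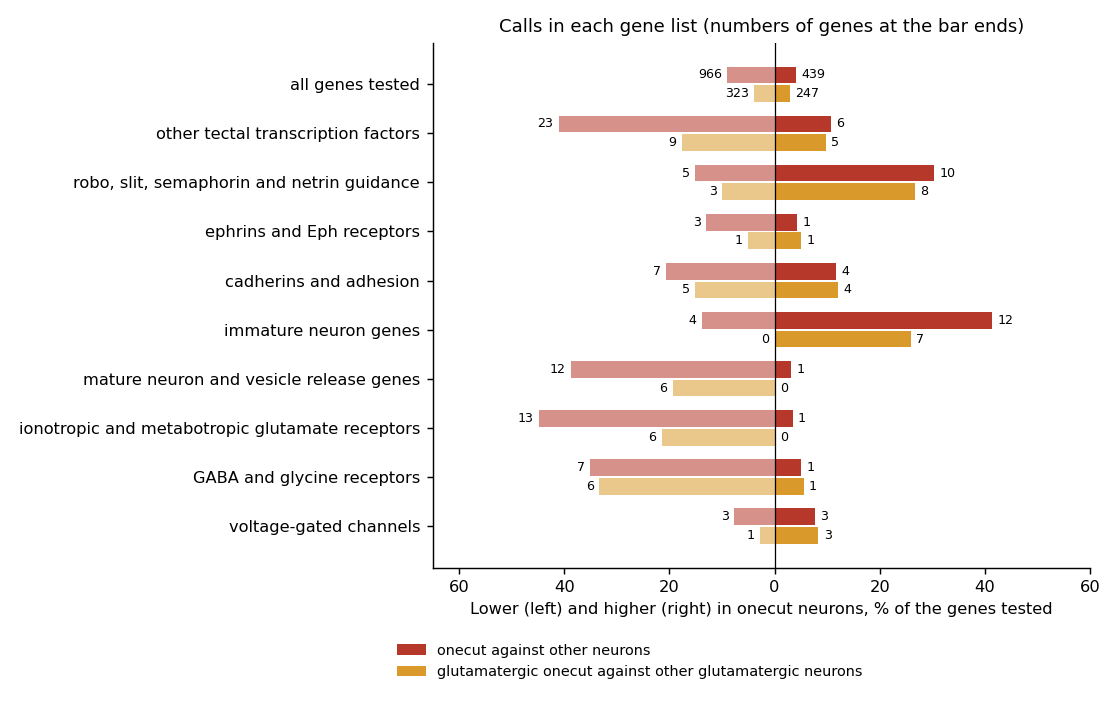
Share of the genes tested in each list that were called lower (left, pale) or higher (right, dark) in onecut neurons (%, horizontal axis), for all neurons (red) and for glutamatergic neurons only (orange), with the number of genes at the bar ends. The immature neuron list has 12 genes higher and 4 lower among all neurons, and the list of mature and vesicle release genes 1 higher and 12 lower.

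The study described excitatory transcriptomic types (t-types) whose marker lists hold *onecut1* or *onecut3b*, named e5, e24 and e30. Their remaining markers were drawn from these libraries, so that a shared direction is not independent evidence. Of 26 markers of e5, 24 rose and 0 fell in onecut against other neurons, beside 4.09% higher and 9.0% lower of all genes tested. Of 27 markers of e24, 20 rose and 0 fell, and of 26 markers of e30, 12 rose and 1 (*cspg5b*) fell. In the glutamatergic comparison the same lists had 25, 16 and 10 higher and 0, 0 and 0 lower, beside 2.93% and 3.83% of all genes.

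Whether the markers of these types met in the same cells was examined within onecut neurons, in 7 batches with at least 20 members. The pairs, too, were taken from lists made on these libraries, so that how often they met is not independent evidence. For each gene pair the number of members with UMIs of both was compared with what both genes' shares predict inside each of 5 depth strata per batch, with an exact two-sided sign-flip test over batches, whose smallest p was 0.016 (0.027 after adjustment over the 12 pairs tested, of which 8 are given here). *bnc2* and *uncx*, a homeobox gene, met in 99 members where 137 were expected, a ratio of 0.721, below expectation in 7 of 7 batches (exact adjusted p = 0.027).

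Other pairs met more often than their depth predicted. *pou4f1*, a POU homeobox gene, met *bnc2* in 173 where 150 were expected (1.16) and *barhl2* in 137 where 100.1 were expected (1.37). Each of these, and *slc17a6a* with *slc17a6b* (133 where 100.5 were expected, 1.32), was above expectation in 7 of 7 batches at the same exact adjusted p = 0.027. For *pou4f1* with *bnc2*, batch 8 was all but level, with 38 members where 37.9 were expected. *onecutl* did not pass with *bnc2* (1.22, 5 of 7 batches above, exact adjusted p = 0.11), nor did *pou2f2a* (1.08, 6 of 7, exact adjusted p = 0.10) or *tfap2d* (1.104, 5 of 7, exact adjusted p = 0.12). *slc17a6b* and *gad1b* met in 77 where 105 were expected (0.732, 5 of 7 below, exact adjusted p = 0.094). With 1 batch left out, the 4 pairs given here that had passed (*bnc2* with *uncx*, *pou4f1* with *bnc2* and with *barhl2*, *slc17a6a* with *slc17a6b*) kept their direction in 6 of 6 batches. Their exact adjusted p was 0.047 without batch 4, where *pou2f2a* with *bnc2* passed as well, and 0.054 without any other batch. With 6 batches the smallest exact p was 0.031 before adjustment, which these pairs reached each time. The ratio of *bnc2* with *uncx* then ranged between 0.657 and 0.777. With at least 2 UMIs of each gene, *slc17a6a* with *slc17a6b* did not pass (4 of 7 batches above, exact adjusted p = 0.41), and with 10 depth strata *onecutl* with *bnc2* did (1.21, 6 of 7 above, exact adjusted p = 0.047). With these strata *pou4f1* with *bnc2* was above in 6 of 7 batches (1.15, exact adjusted p = 0.047).

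**Figure D5:**
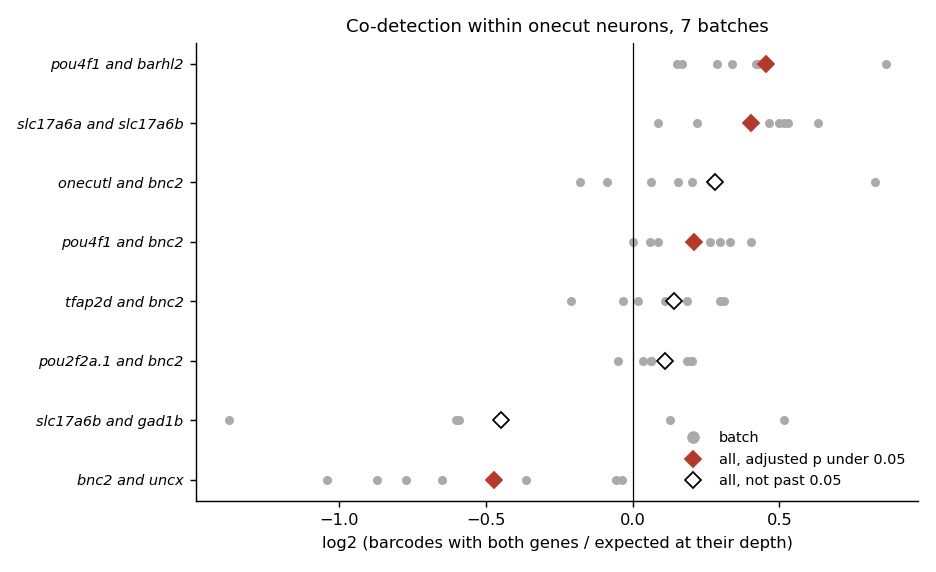
Ratio of the number of onecut neurons with UMIs of both genes to the number expected at their depth (log2, horizontal axis) for 8 gene pairs, with grey points for batches (ratios of 0 are not drawn) and diamonds for all 7 batches, filled where the exact adjusted p was under 0.05. *pou4f1* with *barhl2* lies highest at a ratio of 1.37 and *bnc2* with *uncx* lowest at 0.721.

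Members that carried *onecut1* alone were then compared with members that carried *onecut3b* alone, 137 against 442 barcodes in 6 batches. Of 1652 genes, 130 (7.87%) were higher and 82 (4.96%) lower in *onecut1*-only neurons in the edgeR test. These counts depended on single batches: without batch 11 they were 6 and 9, without batch 10 they were 12 and 20, without batch 5 they were 18 and 29, without batch 12 they were 23 and 26, without batch 8 they were 110 and 54, and without batch 4 they were 242 and 117. DESeq2 gave 129 higher and 36 lower. At 3 or more UMIs of the gene, in 3 batches, 0 passed in either direction in edgeR (138 higher and 132 lower at an unadjusted p under 0.05). Median depth was 3313 UMIs in *onecut1*-only and 3834 UMIs in *onecut3b*-only members.

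Several genes of early neurons were higher in *onecut1*-only neurons. *nhlh2* had between 176 and 485 CPM in *onecut1*-only neurons, median 280, against 0 to 148 CPM in *onecut3b*-only neurons, median 31.8, without overlap (2.91 ± 0.50, edgeR adjusted p = 0.0097, and 0.076 without batch 10). *scrt1a*, a scratch-type repressor gene of early neurons, had medians of 387 CPM in *onecut1*-only and 115 CPM in *onecut3b*-only neurons and was higher in 6 of 6 batches (2.11 ± 0.29, adjusted p = 0.00023). Of 20 immature neuron genes 7 were higher and 0 lower, beside 7.87% and 4.96% of all genes, among them *tmsb* (1.34), *insm1a* (1.02), *sox11b* (0.97) and *sox11a* (0.74). *sox4b* (1.02 ± 0.31) passed in edgeR at an adjusted p of 0.034, but not without batch 5 or batch 12 (0.0679 and 0.0898). *gadd45ga* (1.27 ± 0.26), a growth arrest gene, was also higher in 6 of 6 batches.

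Some adhesion and synaptic genes were lower in *onecut1*-only neurons. The cadherin gene *cdh11* had between 36.8 and 86.9 CPM in *onecut1*-only neurons against 111 to 306 CPM in *onecut3b*-only neurons, without overlap (-1.65 ± 0.31, edgeR adjusted p = 0.0039). The neurexin gene *nrxn3a* had medians of 302 CPM in *onecut1*-only and 1093 CPM in *onecut3b*-only neurons (-1.61 ± 0.26; -1.03 with an edgeR adjusted p of 0.17 at 1500 to 4000 UMIs), and the protocadherin gene *pcdh11* (ENSDARG00000098652; -1.29 ± 0.21) and the receptor phosphatase gene *ptprfb* (-1.38 ± 0.24) were lower in *onecut1*-only neurons in 6 of 6 batches. *slc6a1b* was lower by 1.65 in the *onecut1*-only group. Of 16 glutamate receptor genes 5 fell and 0 rose, beside 4.96% and 7.87% of all genes, and *gria3b* (-1.09) and *gria4b* (-0.83) were among those that fell. *unc5da*, a netrin receptor gene, had a log2 fold change of -1.4 ± 0.38, and without batch 5, 10, 11 or 12 its edgeR adjusted p was between 0.0512 and 0.0998.

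Differences between the ages that passed in onecut neurons were few and unstable, in fits with little power for small differences. With 6 batches at 7 dpf and 4 at 6 dpf and the sequencer as a covariate, 0 of 3453 genes (0%) passed in onecut neurons by edgeR or DESeq2, and 80 had an unadjusted p under 0.05 in edgeR. Without the low-count filter 17 were lower at 7 dpf, and without batch 5, 6 or 8 there were 2, 1 and 1. The difference between onecut and other neurons itself differed between the ages, by the interaction term, for 6 of 10734 genes (0.0559%) in edgeR and for 0 in DESeq2, with 440 at an unadjusted p under 0.05 in edgeR. In simulated counts, the age fit recovered 31.4% of planted changes of 1 on the log2 scale and 97.4% of those of 2. The interaction fit recovered 12.1% and 79%, so that changes of 1 would mostly be missed in both fits.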

How the data were processed

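Single-cell RNA sequencing (10x 3′ chemistry) of OT from 11 dissections was used. The authors deposited raw UMI counts per gene and barcode, made with Cell Ranger 7.1.0 on GRCz11. Repeat sequencing runs of batches 5, 6, 8, 10 and 12 had no counts of their own and were taken as combined in those of their batch. The 2 lanes of batch 11 were summed here. Sequencers followed the methods (batches 1 to 8 HiSeq, the others NovaSeq by elimination). The members and gene lists were chosen with earlier results of these data known. The genes named are list members, the 15 largest and 15 smallest called fold changes with 1 sign in every batch (10 each for *onecut1*-only against *onecut3b*-only) and the 10 largest fold changes overall. Some genes that this rule names, and gene pairs with them, are not reported here.

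Barcodes were filtered as stated, doublets scored per lane with Scrublet (scanpy 1.11.5) and kept, and counts summed per batch and group with at least 10 barcodes. edgeR 4.0.16 (R 4.3.3; TMM, filterByExpr, robust quasi-likelihood) was the test and DESeq2 1.42.0 an alternative. The SE given with an edgeR fold change is its size divided by the square root of the test's F statistic. It was not fitted directly and is least certain for genes with few UMIs. The batch block pairs groups from 1 dissection, whose deviations over 7665 genes correlated between 0.204 and 0.848 in the 10 batches. Fits and exact tests were tested on simulated data. Alternatives covered scaling, filters, depth, doublets, the rule's limit and each batch left out.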

Additional observations from a re-analysis of the deposited data

Results flagged for a closer look

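In 6 genes the difference between onecut and other neurons differed between 7 and 6 dpf by the interaction term in edgeR. *dlb*, a Notch ligand gene, had the single positive interaction (1.56), with a median of 66.3 CPM in onecut and 42.1 CPM in other neurons at 7 dpf, and 33.6 CPM in onecut and 79.9 CPM in other neurons at 6 dpf. The other interactions were -3.75 for *fabp11a*, -2.83 for *rgs5b*, -4.70 for *sparc*, -2.71 for *tcima* and -2.70 for *tmtops2a*. They rested on 1 to 11 UMIs in the onecut neurons of all 7 dpf batches together, and on 17 to 44 at 6 dpf. Without batch 7 or batch 11, 0 of the 10688 and 10572 genes tested passed.

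Single batches stood apart in 7 of 82 sets of values examined, where chance marks about 5% of sets. Values are log2 (CPM + 1) differences within a batch, and 5 of the 7 (all but *rapgef5b* and *cdh11*) rest on a group with 0 UMIs in that batch, so that the added 1 sets their size. For *barhl1a* the difference was -7.62 in batch 6 in onecut against other neurons, and between -3.22 and -1.01 in the other batches. In the glutamatergic comparison *barhl1a* was at -8.61 in batch 8, against -3.42 to -1.43 elsewhere. Among *onecut1*-only against *onecut3b*-only neurons, *rapgef5b* was at 3.51 in batch 5 (0.52 to 1.37 elsewhere), *sox4b* at 5.63 in batch 4 (0.36 to 1.21), *cdh11* at -0.35 in batch 8 (-2.21 to -1.66), *ppargc1a* at -7.82 in batch 12 (-2.60 to -0.04) and *znf536* at -8.52 in batch 4 (-2.27 to -0.55).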

How the results depend on the processing

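Counts below are genes higher and lower. Without the replicate block, calls fell to 52 and 57 (onecut against other neurons), 13 and 6 (glutamatergic) and 0 and 0 (*onecut1*-only against *onecut3b*-only). DESeq2 gave 594 and 158 lower in the first and second comparison and 36 lower in the third. Without the low-count filter 1633 and 789 were lower in the first and second, and 35 were higher in the third. At 1500 to 4000 UMIs, 481 were lower in the first, 106 and 118 called in the second, and 8 and 5 in the third. Without radial glia or cycling UMIs, an alternative chosen after seeing the data, 139 and 275 were called in the first. In the third, 85 were higher with at least 20 barcodes, and 0 and 0 at 3 or more UMIs. Leaving out a batch gave 281 to 572 and 719 to 911 in the first, 162 to 256 and 206 to 359 in the second, and 6 to 242 and 9 to 117 in the third. For age in onecut neurons, 17 were lower without the filter, 1 with at least 20 barcodes, and 0 to 2 without a batch. For the interaction, DESeq2 and the depth window gave 0 and 0, at least 3 UMIs or 20 barcodes 0 lower, and removal of habenula and lens barcodes 0 and 3. Doublet removal left 1 lower, and the fit without the filter 15 lower. Leaving out a batch gave 0 to 5 and 0 to 9. The cause of these shifts was not tested, beyond fewer barcodes or genes entering.

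The share by age kept its sign and stayed short of the threshold in every setting, at -0.67 to -0.20 percentage points without a batch. Alternatives were followed for 56 genes in onecut against other neurons, and not for every gene named. None of the 56 changed sign, 53 of 1086 checks lost the call and 1 gained it (*slc17a6a*, 0.45 with at least 20 barcodes). Calls were lost in 37 of 505 checks of 35 genes for the glutamatergic comparison. For *onecut1*-only against *onecut3b*-only, 68 of 246 checks of 19 genes lost the call, again not covering every gene named. The interaction lost 54 of 93 and co-detection 25 of 80. Most of those for co-detection were checks with 1 batch left out, where 6 batches set the smallest exact p at 0.031 before adjustment. The adjustment and not the direction decided these calls. Batches 1, 2, 3 and 6 held 15, 8, 17 and 12 members, and the third comparison rested on 137 *onecut1*-only members, which limits their precision.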

Other observations

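Genes outside the lists also separated the members. *scube1*, which encodes a secreted and membrane-bound signalling protein, had a median of 50.01 CPM in glutamatergic onecut neurons (23.6 to 80.4) and 7.25 CPM in other glutamatergic neurons (5.83 to 13.4), without overlap (log2 fold change 2.65 ± 0.32). *btbd17a* had a median of 27.3 CPM in glutamatergic onecut neurons (17.3 to 59.1) and 5.78 CPM in other glutamatergic neurons (2.01 to 11.6), without overlap (1.89 ± 0.38). These genes rested on few UMIs in the glutamatergic onecut neurons. *scube1* had 65 in all with 2 in batch 4, and *btbd17a* 35 in all with 1 in batch 5. The lack of overlap therefore depends on single UMIs in such batches. *efhd1*, a mitochondrial calcium-binding protein gene, had medians of 1.85 CPM in glutamatergic onecut neurons and 33.2 CPM in other glutamatergic neurons (-2.50 ± 0.50), and rested on 6 UMIs in the onecut neurons.

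The defining pair had a different balance between batches. Barcodes with at least 2 *onecut1* UMIs made up 0.485% of *elavl3* barcodes in batch 10 and those with at least 2 *onecut3b* UMIs 2.50%, while in batch 6 the *onecut1* share was 0.917% and the *onecut3b* share 0.262%. The *onecut3b* share was the higher in batches 3, 4, 7, 8, 10, 11 and 12, which include the 3 NovaSeq batches, and the *onecut1* share in batches 1, 2, 5 and 6. Sequencer, depth and batch cannot be told apart here, and their part in the balance was not tested.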
